A study of Caenorhabditis elegans with 14 samples.

Results

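The library from wild type N2 worms without a transgene is the control of a study of RNA bound by EIF-3.G in Caenorhabditis elegans. It shows which RNA the precipitation recovers when no FLAG-tagged protein is present. Its list held 7170 peaks of the 162556 listed in the 7 CLIP libraries of the series. All listed N2 peaks were used and were set against the lists of the 6 libraries from tagged strains. Peaks of 2 libraries were matched when they lay on the same chromosome and strand and overlapped by at least 1 nt.

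EIF-3.G is the G subunit of eIF3, the translation initiation factor that helps to load the small ribosomal subunit onto mRNA. It carries a zinc finger and an RNA recognition motif (RRM). In single-end enhanced CLIP (seCLIP), ultraviolet light joins proteins to the RNA they touch, the protein of interest is precipitated, and the attached RNA is sequenced beside an input library made without the precipitation. RNA can also reach the beads without the tagged protein, through abundant RNA-protein complexes or proteins that the antibody or beads bind, and a strain without a transgene measures that background.

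The tagged strains expressed 3xFLAG fusions from the Punc-17beta promoter, which is active in cholinergic motor neurons, and all of them carried acr-2(n2420), an allele of an acetylcholine receptor subunit gene. Strain CZ26494 carried the intact protein, called (+), from the insertion juSi364. Strain CZ26565 carried the C130Y form from juSi365 together with the allele ju807 of eif-3.G itself. Strain CZ26623 carried the form without the RRM, called ΔRRM, from juSi368. Each of these 3 forms had 2 CLIP libraries, and N2 had 1. N2 carried neither the transgenes nor the acr-2 or eif-3.G alleles, so the tag and the strain background cannot be told apart in any comparison below. The source label of N2 names an IgG control and its antibody label names the anti-FLAG M2 used for the tagged strains, so it is called the no-transgene library. Whole worms, of mixed stages, received 3 kJ/m2 of ultraviolet light. The labelled cell type was not checked against marker genes, because the lists name no genes and no annotation of their genome build, ce10, was used. The labels do not say whether the 2 libraries of a form came from separate cultures, so the spread between them may be technical.

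N2 was the smallest library. The recovered CLIP total behind its list was 192259 reads, against 543913 to 1724553 in the tagged libraries, and its input total was 428682 reads, against 1136562 to 3026636. The log2 of a peak is the authors' ratio of its CLIP reads to its input reads, each relative to the library total, and the −log10 p beside it is also theirs. Enriched peaks are those with a log2 of at least 1 whose −log10 p reached 3. With 1 control library, N2 was placed in the range of the 6 tagged libraries. An exact two-sided permutation test of 1 against 6 libraries cannot give a p below 0.286, so no difference from N2 can pass a threshold. Every value per library that is said below to lie outside the tagged range in N2 had that exact permutation p of 0.286.

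N2 gave nearly as many enriched peaks as a (+) library. It had 615, while (+) had 640 and 651, C130Y 1181 and 958, and ΔRRM 1767 and 1146. As a share of the list, 8.58% of N2 peaks were enriched, while the (+) lists had 1.86% and 2.55%, the C130Y lists 4.44% and 2.64%, and the ΔRRM lists 16.0% and 5.34%. The number in N2 was thus below all 6 tagged libraries, while the share was inside their range and above 5 of them. With abutting pieces of identical values joined, N2 had 601 enriched peaks and the lowest tagged library 599.

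The strength of enrichment in N2 also lay inside the tagged range. The median log2 of its enriched peaks was 2.96. That of the (+) libraries was 2.31 and 2.64, that of C130Y 2.41 and 2.45, and that of ΔRRM 3.10 and 2.29. Its highest log2 was 6.33, and the highest of each tagged library ranged from 5.51 to 8.07. A log2 of at least 5 was reached by 34 enriched N2 peaks and by 10 to 74 in the tagged libraries. Of all listed N2 peaks, 87.4% had a log2 above 0, a share exceeded by both ΔRRM libraries, at 97.4% and 92.6%, and not by (+), at 63.1% and 59.4%, or C130Y, at 78.6% and 68.9%. By these listed values N2 peaks were not weak relative to their input. At few reads, however, the log2 depends strongly on the library totals, and the input total exceeded the CLIP total in N2 but not in (+). A peak of few reads also needed a high log2 to be called. The part of these limits in the N2 values was not tested.

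N2 stood outside the tagged range in some measures of how its enriched peaks were shaped and scattered, though ΔRRM came near it in length. Their median length was 52 nt, against 31 and 28 nt in (+), 33 and 33.5 nt in C130Y, and 48 and 49 nt in ΔRRM. The first quartile of length, 29 nt in N2, lay inside the tagged range of 13 to 35 nt. Over all listed peaks the median length was 37 nt against 29 to 34 nt. Of the enriched N2 peaks, 37.7% had no other enriched N2 peak within 5 kb on the same strand, against 27.5% to 33.3% in the tagged libraries. The locus with the most enriched peaks held 9 in N2 and 20 to 43 in the tagged libraries. The tagged lists also held more enriched peaks, and the 5 largest loci held 6.02% of the enriched peaks in N2, inside the tagged range of 4.75% to 10.0%.

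N2 peaks kept to 1 strand, as those of the tagged libraries did. No enriched N2 peak overlapped a listed N2 peak on the other strand, and at most 1 did in any tagged library. The plus strand held 51.7% of the enriched N2 peaks, inside the tagged range of 50.5% to 56.4%.

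Depth limits what N2 could show. Read numbers of a peak were also expressed per 1000000 CLIP reads of the library (RPM). A peak with 1 input read needed 8 CLIP reads to be called in N2, which is 41.6 RPM, while 5.76 to 12.9 RPM sufficed in the tagged libraries. The median enriched N2 peak held 29 CLIP reads, or 151 RPM, against 35.4 to 63.0 RPM in the tagged libraries. N2 called peaks therefore represent larger shares of their library than tagged ones. An input of 1 read lay behind 10.4% of the enriched N2 peaks and 5.67% to 9.90% of the tagged ones.

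When the reads of each tagged library were multiplied by the ratio of the N2 totals to its own and the calls were made again, the order of the numbers turned. Enriched peaks then numbered 272 and 306 for (+), 428 and 432 for C130Y, and 562 and 287 for ΔRRM, all below the 615 of N2. This scaling used rounded read numbers and adds no counting error of a smaller library. Whether N2 had fewer or more enriched peaks than the tagged libraries thus changed with the read totals used.

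**Figure D1:**
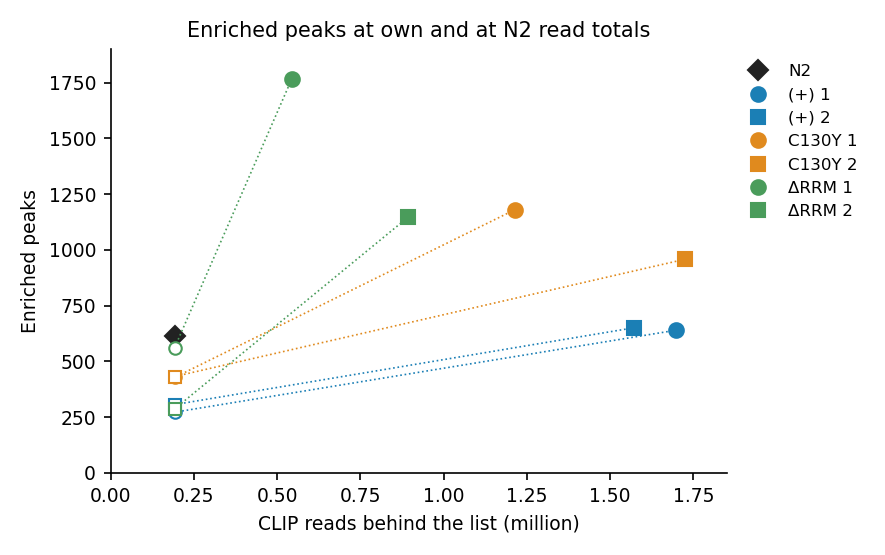
Number of enriched peaks (vertical axis) against the CLIP reads behind each list, in units of 1000000 (horizontal axis). Filled symbols are libraries at their own totals, open symbols joined by dotted lines are the same tagged libraries with reads scaled to the N2 totals, and at those totals all 6 lie between 272 and 562, below the 615 of N2.

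The next question was how much of the background seen without a transgene recurred in the tagged libraries. Of the 615 enriched N2 peaks, 200 (32.5%) and 146 (23.7%) overlapped an enriched peak of the first and second (+) library. The C130Y libraries had 270 (43.9%) and 199 (32.4%), and the ΔRRM libraries 167 (27.2%) and 108 (17.6%). Among all listed N2 peaks the corresponding shares were 4.48% and 3.77% for (+), 6.43% and 5.27% for C130Y and 7.03% and 4.39% for ΔRRM. In all 6 tagged libraries, enriched N2 peaks recurred at several times the rate of listed N2 peaks.

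Most of the enriched N2 peaks were covered by the tagged lists even where they were not called. A listed peak of any log2 lay at 94.3% and 79.3% of them in (+), at 89.9% and 86.2% in C130Y and at 58.7% and 67.3% in ΔRRM. Only 14 of the 615 had no listed peak in any tagged library, and 305 had one in all 6. A tagged peak with a log2 above 0 was missing at 23 of the 615 (3.74%, Wilson 95% interval 2.50% to 5.55%), against 37.8% of all listed N2 peaks. All intervals here cover counting error only.

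Seen from the tagged libraries, the share that N2 also called was lower for ΔRRM than for the other forms. In the (+) libraries 259 (40.5%) and 217 (33.3%) of the enriched peaks overlapped an enriched N2 peak. In C130Y these were 383 (32.4%) and 304 (31.7%), and in ΔRRM 202 (11.4%) and 141 (12.3%). Among all listed peaks the shares were 2.24% and 2.51% for (+), 2.74% and 1.93% for C130Y, and 3.72% and 2.23% for ΔRRM. Both ΔRRM libraries lay below all 4 libraries with an RRM.

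By form, (+) had a mean share of 36.9% ± 5.05, C130Y of 32.1% ± 0.493 and ΔRRM of 11.9% ± 0.616 (SD, n = 2 each). The difference of 25.0 percentage points between (+) and ΔRRM and that of 20.2 between C130Y and ΔRRM exceeded the spread of the libraries, with an exact two-sided permutation p of 0.333 each, the smallest that 2 against 2 libraries allow. The difference of 4.82 points between (+) and C130Y was of the size of the (+) SD. All 6 shares use the same N2 list. With tagged reads scaled to the N2 totals, the shares were 61.0% and 57.8% for (+), 61.2% and 60.0% for C130Y, and 29.7% and 37.6% for ΔRRM. The ΔRRM libraries stayed lowest at equal totals, and the order of (+) and C130Y turned.

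**Figure D2:**
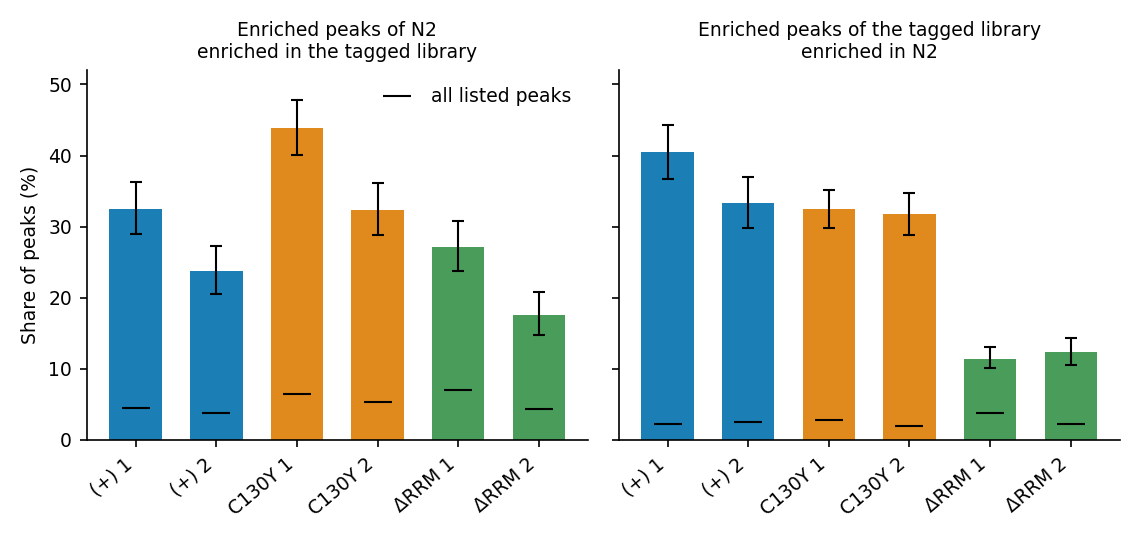
Left, share in percent of the 615 enriched N2 peaks that overlapped an enriched peak of each tagged library. Right, share of each tagged library's enriched peaks that overlapped an enriched N2 peak. Error bars are Wilson 95% intervals, and black ticks give the same share over all listed peaks. The right panel shows 11.4% and 12.3% in ΔRRM against 31.7% to 40.5% in the other 4 libraries.

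By enriched peaks and by log2, N2 was less like most tagged libraries than libraries of 1 form were like each other. The matching of listed peaks depended on the direction. A listed N2 peak was matched in a tagged library at 23.8% to 54%, and a listed tagged peak in the other library of its form at 28.4% to 53.8%. In the reverse direction, a listed tagged peak was matched in N2 at only 9.80% to 16.1%. The N2 list was the shortest, and the part of list length was not tested. Enriched peaks of a tagged library recurred in the other library of the same form at 47.0% to 77.9% (6 ordered pairs) and in libraries of another form at 22.2% to 76.0% (24 ordered pairs), against 17.6% to 43.9% for N2 in the tagged libraries. At peaks listed in both N2 and a tagged library, the log2 values correlated across peaks with a Pearson r of 0.34 to 0.52. Between tagged libraries of 1 form r was 0.60 to 0.69, and between forms 0.40 to 0.67. Peaks are not independent replicates and share the library totals, so these are descriptions. The median N2 log2 minus the tagged log2 at matched peaks was 0.96 and 1.08 for (+), 0.58 and 0.69 for C130Y, and −0.77 and 0.06 for ΔRRM.

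The enriched N2 peaks ranged from those called in no tagged library to those called in all of them. Of the 615, 285 were enriched in no tagged library, 73 in 1, 86 in 2, 36 in 3, 21 in 4, 31 in 5 and 83 in all 6, so that 247 (40.2%) recurred in some but not all. The 285 made up 46.3% (Wilson 42.4% to 50.3%), against 88.5% of all listed N2 peaks. The 83 made up 13.5% (Wilson 11.0% to 16.4%), against 1.62% of all listed N2 peaks.

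The same counts for each tagged library against its 6 others, N2 included, put the second group but not the first in the tagged range. Peaks enriched in no other library made up 4.53% and 5.38% for (+), 17.9% and 8.04% for C130Y, and 38.3% and 20.3% for ΔRRM, all below the 46.3% of N2. Peaks enriched in all others made up 18.9% and 20.6% for (+), 10.4% and 12.7% for C130Y, and 6.45% and 10.0% for ΔRRM, with 13.5% in N2 among them. Every tagged library has a partner of its own form among the others, and N2 has none.

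**Figure D3:**
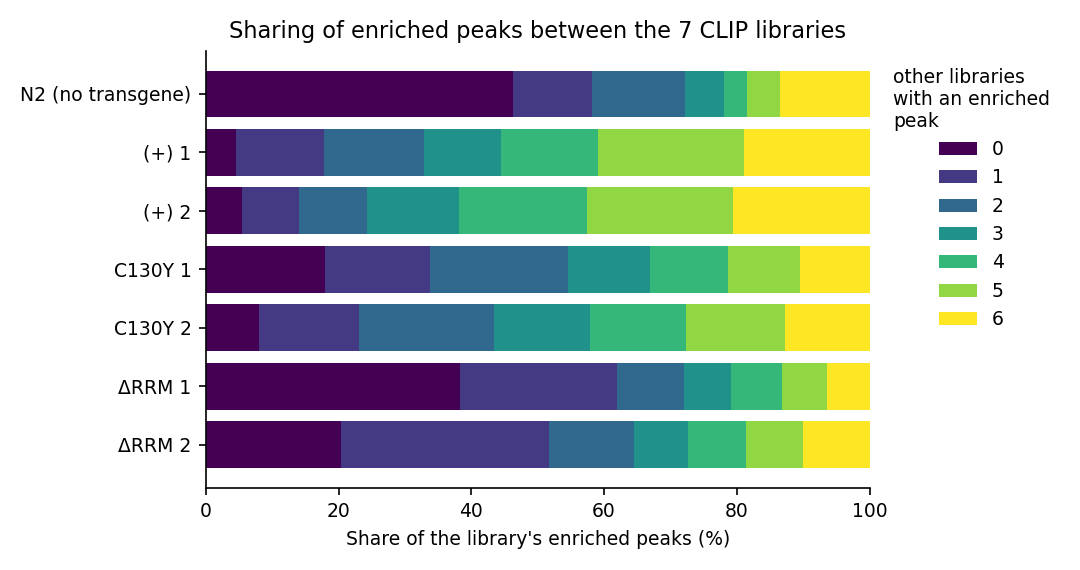
For each library, the share in percent of its enriched peaks by the number of other libraries, 0 to 6, that also had an enriched peak there. The darkest bar, peaks in no other library, covers 46.3% in N2 and 4.53% to 38.3% in the tagged libraries.

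Read numbers differed between these groups. The 285 peaks called in N2 alone had a median of 15 CLIP reads, a median length of 66 nt and a median log2 of 3.16, in 226 loci. The 83 peaks called in all libraries had a median of 67 CLIP reads, a length of 40 nt and a log2 of 2.78, in 55 loci. Only 14 of the 285 were among the 113 enriched N2 peaks with at least 100 CLIP reads, and 104 were among the 389 with at least 20. The peaks called in N2 alone were thus the longer, read-poor ones with the higher ratio.

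Not being called in a tagged library did not mean a log2 below its minimum. In 166 of the 285 peaks called in N2 alone, at least 1 tagged library listed a log2 of at least 1 that missed the p minimum, and 14 of the 285 had no listed tagged peak. All tagged libraries were deeper than N2.

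Among the peaks enriched in all 7 libraries, those with the highest N2 log2 lay mostly on chromosome IV. A library's value at an N2 peak is that of its overlapping peak with the highest log2, and values are given in the order (+), C130Y, ΔRRM, replicate 1 before 2. At chrIV:5317268-5317292 on the minus strand N2 had a log2 of 5.80 on 75 CLIP and 3 input reads, beside 3.77, 4.27, 6.30, 6.97, 4.51 and 3.54. At chrIV:5261970-5261998 on the plus strand N2 had 5.25 on 154 CLIP and 9 input reads, beside 3.77, 5.40, 5.69, 5.30, 5.24 and 3.31. In both regions N2 lay inside the range of the tagged libraries, with a C130Y library highest.

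Further regions of this group varied in the place of N2. At chrI:11609364-11609414 on the plus strand N2 had 5.06, above the tagged values of 3.50, 4.90, 3.93, 3.50, 4.02 and 2.05. At chrIV:624108-624157 on the minus strand N2 had 4.48 beside 3.59, 4.35, 5.18, 5.86, 3.06 and 2.12. At chrI:9057902-9057925 on the minus strand it had 4.46 beside 3.29, 3.53, 4.97, 4.41, 3.28 and 2.68. At these 3 regions ΔRRM replicate 2 was the lowest of the 7 libraries. At chrIV:13601653-13601688 on the plus strand N2 had 3.96 beside 2.91, 2.20, 5.14, 5.60, 3.71 and 2.28.

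In one region of the group the N2 log2 stood well above the tagged ones, with unequal input levels. At chrIV:4390267-4390302 on the minus strand N2 had 4.80 on at least 212 CLIP and 17 input reads, a lower bound because its −log10 p was at the cap of 400. The tagged values there were 1.54, 2.02, 1.68, 1.96, 1.73 and 1.08, all below N2 and close to one another. The CLIP level was 1103 RPM in N2 and 142 to 881 RPM in the tagged libraries, and the input level was 39.7 RPM in N2 and 36.5 to 304 RPM in the tagged libraries. The abutting piece chrIV:4390248-4390266 had 3.74 in N2, also at the cap. The remaining named regions rested on fewer reads. N2 had 4.16 on 8 CLIP reads and 1 input read at chrIV:2802345-2802399 on the plus strand. It had 3.96 at the abutting pieces chrV:15029027-15029041 and chrV:15029042-15029059 on the minus strand, both on 21 CLIP and 3 input reads.

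The strongest enrichments of N2 were at peaks no tagged library called. The highest log2 of the list, 6.33 on 72 CLIP and 2 input reads, belonged to 3 abutting pieces at chrIV:9829515-9829519, chrIV:9829520-9829533 and chrIV:9829534-9829539 on the plus strand, which share their values. The listed tagged values there were 0.42 and 2.30 in (+), 0.51 in C130Y replicate 1 and 2.55 in ΔRRM replicate 2, on 4 to 12 CLIP reads. The CLIP level was 374 RPM in N2 and 3.29 to 7.06 RPM in those tagged libraries. N2 stood far above the tagged libraries at this site both over input and in RPM.

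Other peaks of this group had tagged values spread from below 0 to above 3. At chrIII:11436934-11437009 on the minus strand N2 had 6.29 on 35 CLIP reads and 1 input read, and only the (+) libraries listed a peak, with 0.16 and 1.3. At chrV:4826185-4826197 on the minus strand N2 had 6.01 on 29 CLIP reads and 1 input read, beside 0.19 and 0.13 in (+) and 1.02 and 1.69 in C130Y. At the abutting pieces chrX:7485869-7485875 and chrX:7485876-7485889 on the minus strand N2 had 5.55 on 21 CLIP reads and 1 input read. There (+) replicate 2 had 3.52 on 14 CLIP reads and C130Y replicate 1 had 3.32 on 8, which missed the p minimum. Calls in N2 alone therefore included sites where a tagged library was also above its input. N2 also had 5.68 at chrIII:5167269-5167367 on the minus strand, where 5 tagged libraries listed 0.76 to 2.55. At chrIV:17088260-17088277 on the plus strand it had 5.62, and (+) replicate 1 alone listed a peak, with 1.74.

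The N2 peaks with no tagged peak above 0 were short of reads. The 23 had a median of 14 CLIP reads, none reached 100, and 7 had an input of 1 read. Their place in the list thus rested on few reads. The 10 with the highest N2 log2 led with 5.16, on 16 CLIP reads and 1 input read, at chrV:3541161-3541167 and the nearby chrV:3541174-3541175 on the minus strand. N2 had 4.86 on 13 CLIP reads at chrIII:5120121-5120125 on the plus strand and 3.86 in the piece beside it, chrIII:5120126-5120145. It had 4.62 on 11 CLIP reads at chrV:11908784-11908836 and 4.33 on 9 at chrII:11215017-11215073, both on the plus strand. The other 4 were chrII:5457881-5457904 and chrIII:860634-860653 with 4.16 each, and chrI:14814727-14814751 and chrIII:11843333-11843427 with 3.48 each. Tagged libraries listed a peak in only 1 of these 10, the last, with −0.36 and −0.46 in C130Y. Without (+) replicate 1 the number with no tagged peak above 0 rose from 23 to 46. Leaving out a library can only raise or keep this number.

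**Figure D4:**
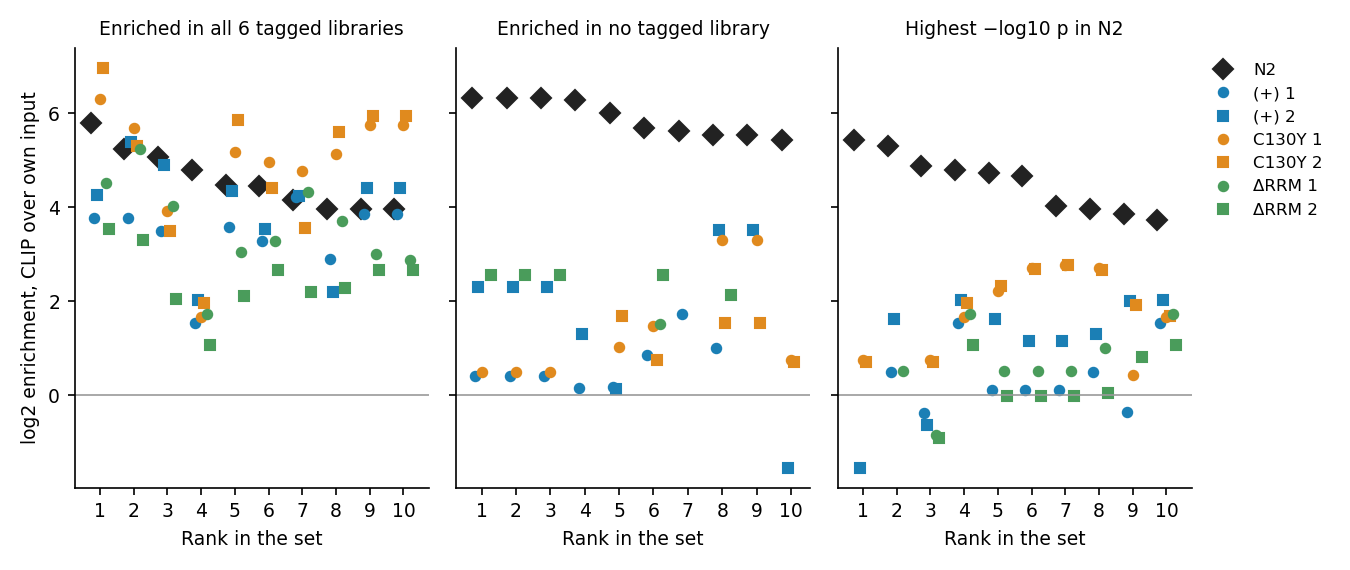
log2 enrichment over the library's own input (vertical axis) at the 10 N2 peaks of each of 3 sets, ranked from left to right. Black diamonds are N2 and coloured symbols the tagged libraries, with none drawn where a library listed no peak. N2 lies among the tagged libraries in most of the left set and above all of them in the middle set, where its values run from 5.43 to 6.33 and the choice of peaks requires that no tagged library made a call.

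At the cap of −log10 p N2 had 25 enriched peaks, and the 10 of these with the highest log2 are described here. The pieces chrV:19643132-19643138 and chrV:19643090-19643131 on the minus strand had 5.43 and 4.88 in N2, on at least 251 and 383 CLIP reads. At the longer piece the tagged values were −0.37 and −0.63 for (+), 0.76 and 0.70 for C130Y, and −0.84 and −0.91 for ΔRRM. No tagged library called either piece, and 4 were below their input at the longer one, although all 6 listed a peak there. The C130Y values there rested on 452 and 610 CLIP reads.

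A run of pieces on chromosome III was shared in part with C130Y and with (+) replicate 2. From chrIII:4689666-4689680 to chrIII:4689707-4689720 on the minus strand N2 had 4.03, 4.68, 4.73 and 5.30. At chrIII:4689681-4689692 N2 had 4.68 on at least 563 CLIP and 49 input reads, beside 0.11 and 1.16 for (+), 2.71 and 2.70 for C130Y, and 0.52 and −0.01 for ΔRRM. (+) replicate 2 was also enriched there and at the other 3 pieces, and at chrIII:4689707-4689720, with 1.62, it was the only tagged library that was, since C130Y listed no peak. At chrIV:653944-653995 on the minus strand N2 had 3.97 beside 0.49 and 1.3, 2.71 and 2.67, and 1.00 and 0.05. C130Y was the nearest to N2 there. The peak chrIV:8927378-8927380 on the plus strand had 3.87 in N2 and was called in 2 tagged libraries, at 2.00 in (+) replicate 2 and 1.92 in C130Y replicate 2. The 10 also include the pieces chrIV:4390267-4390302 and chrIV:4390248-4390266, whose values are given above.

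Over all 615 peaks the forms were counted by calls in both of their libraries. Both C130Y libraries called 193 of the enriched N2 peaks (31.4%), both (+) libraries 119 (19.3%) and both ΔRRM libraries 98 (15.9%). Among all listed N2 peaks these shares were 4.57%, 2.71% and 3.53%, so C130Y was highest there too. Called in both libraries of a form and in no library of another form were 37 peaks for C130Y, 0 for (+) and 3 for ΔRRM, and among all listed N2 peaks 0.851%, 0.0418% and 0.795%. By single libraries the forms overlapped. C130Y replicate 1 called the most of the 615, at 270, and had the highest r, at 0.52. C130Y replicate 2 called 199 with an r of 0.39. The (+) libraries called 200 and 146, with an r of 0.47 and 0.43. The C130Y lists held 1181 and 958 enriched peaks, against 640 and 651 in (+) and 1767 and 1146 in ΔRRM. N2 and C130Y worms differ in both the acr-2 and eif-3.G alleles, and the part of library size or strain in the count was not tested.

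These 37 peaks, in 23 loci, were singled out after their values were seen, and their rule sets C130Y high and the other forms below a call. Their N2 log2 ranged from 1.21 to 5.06, with a median of 2.51. The median listed value was 1.95 and 1.80 in C130Y, −0.49 and 0.23 in (+) and −0.02 and −0.74 in ΔRRM. The (+) libraries listed a peak at 35 and 37 of the 37. Chromosome III held 15 of the 37, several of them pieces of the same loci, and chromosome X none. Of all 615 enriched N2 peaks, chromosome III held 22.6% and chromosome X 3.41%. Whether the 37 differ from these shares was not tested.

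Of the 37, 3 sites, picked without a set rule, are given in full as a description. At chrII:8547212-8547237 on the plus strand N2 had 3.12 on at least 1073 CLIP reads, beside 3.24 and 3.05 in C130Y, −1.21 and 0.45 in (+) and −0.37 and −1.34 in ΔRRM. At chrI:9176331-9176380 on the plus strand N2 had 2.75, C130Y 2.82 and 2.81, (+) −2.19 and −2.47, and ΔRRM replicate 2 −2.35. At chrII:10545206-10545256 on the minus strand N2 had 4.07, C130Y 2.32 and 2.23, (+) −0.87 and −1.38, and ΔRRM −1.25 and −0.53. N2 lay between the C130Y libraries at the first site, just below them at the second and above them at the third. These 3 had mostly negative values in (+) and ΔRRM, which was not so at all of the 37. At the site with the highest N2 log2, chrIII:4757942-4757985 on the plus strand, N2 had 5.06 on 15 CLIP reads and 1 input read. There C130Y had 1.95 and 2.35, (+) 0.92 and 1.04, and ΔRRM 1.17 and 0.68.

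The loci with the most enriched N2 peaks differed in how tagged libraries covered them. The largest, chrV:4647789-4648008 on the minus strand, held 9 enriched N2 peaks with log2 values of 1.56 to 2.83. The tagged libraries had 2 enriched peaks in it in (+) replicate 1, 1 in ΔRRM replicate 1 and none in the other 4. The plus-strand locus chrIII:794408-794861 held 8 in N2, 2 and 4 in (+), 9 and 7 in C130Y and none in ΔRRM. The plus-strand locus chrIII:7208567-7209471 held 7 in N2, 5 and 3 in C130Y and none in (+) or ΔRRM. In both chromosome III loci C130Y came nearest to N2 in number.

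The other loci were a general one and a short one. On the plus strand near the right end of chromosome I, where C. elegans carries its ribosomal RNA gene array, chrI:15065283-15066670 held 7 enriched N2 peaks, and 5 of these were called in all 6 tagged libraries. There (+) had 12 and 17 enriched peaks, C130Y 11 and 18, and ΔRRM 7 and 6. The minus-strand locus chrIII:4689650-4689720 held 6 in N2, 3 in (+) replicate 2, 5 and 5 in C130Y and none in ΔRRM or (+) replicate 1. It was tied with 5 others of 6 enriched N2 peaks and named for its highest log2. Of these others, chrI:10567028-10569397 on the plus strand had 9 and 9 enriched peaks for (+), 7 and 7 for C130Y, and 9 and 7 for ΔRRM, and the plus strand of the mitochondrial genome from 1620 to 7910 had 9 and 6, 8 and 9, and 18 and 16. No gene was assigned to any of these loci.

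Chromosome III was over-represented among the enriched N2 peaks. It held 139 of the 615 (22.6%, Wilson 19.5% to 26.1%), against 14.1% to 17% in the tagged libraries, with a mean of 15.9% ± 1.22 (SD, n = 6). Among listed peaks it held 17.9% in N2 and at most 19% in the tagged libraries. Its share of enriched peaks divided by its share of listed peaks was 1.26 in N2 and 0.77 to 0.95 in the tagged libraries. Counted by loci, so that runs of pieces count once, chromosome III held 21.5% in N2 and 15.1% to 17.7% in the tagged libraries. With tagged reads scaled to the N2 totals the tagged shares were 11.0% to 15%, further from N2. When a −log10 p of 1.3 sufficed, the difference from the tagged mean shrank from 6.73 to 2.83 percentage points.

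Chromosome X was under-represented in N2 by a comparison that changed with depth. It held 21 enriched N2 peaks (3.41%), against 9.74% to 12.9% in the tagged libraries, while its share of listed peaks was 10.0% in N2, inside the tagged 9.87% to 11.9%. Of the listed X peaks of N2, 2.92% were enriched, against 10.8% of those on chromosome III. With tagged reads scaled to the N2 totals, the X share of enriched peaks was 5.88% and 5.56% for (+), 2.10% and 4.17% for C130Y, and 12.1% and 11.1% for ΔRRM. At equal totals N2 thus lay inside the tagged range, below both (+) and between the C130Y libraries, and both ΔRRM libraries stayed high. The low X share of N2 and its low depth cannot be told apart for (+) and C130Y.

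The other chromosomes differed less. Chromosome IV held 18.2% of the enriched N2 peaks against 15.4% to 18.0% in the tagged libraries, and chromosome V 19.3% against 16.4% to 19%. Counted by loci, IV lay inside the tagged range, at 19.1% in N2. By the same count V lay just below it, at 17.20% against 17.22% to 20.13%. Chromosomes I, at 21.3%, and II, at 14.1% of the enriched peaks, lay inside the tagged ranges. By loci, I stayed inside at 21.0%, and II lay above, at 16.7% against 12.8% to 15.2%. The mitochondrial genome held 6 enriched N2 peaks (0.976%) against 1.27% to 2.97% in the tagged libraries. Its share of enriched peaks divided by its share of listed peaks was 2.26 in N2 and 4.07 to 12.5 in the tagged libraries, so mitochondrial peaks were over-represented among enriched peaks in all 7 libraries, least so in N2.

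**Figure D5:**
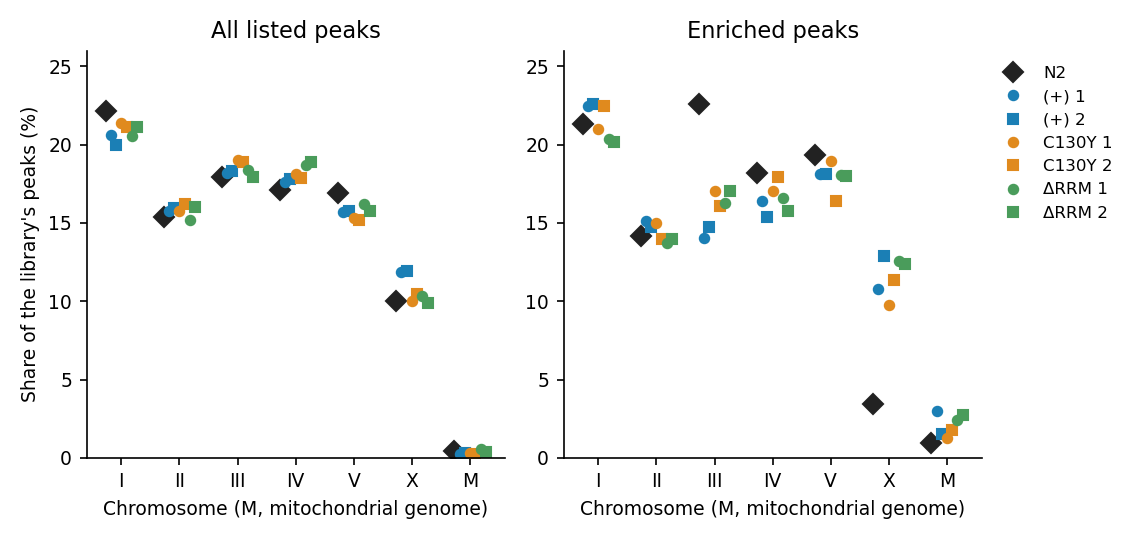
Share in percent of each library's listed peaks (left) and enriched peaks (right) by chromosome. Among listed peaks N2 lies at or near the tagged libraries, and among enriched peaks it lies apart on chromosome III, at 22.6%, and on X, at 3.41%, at each library's own depth.

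Merging the enriched peaks of all libraries gave 2738 regions, which shows how N2 follows the number of tagged libraries that share a site. N2 was enriched in 4.03% of the 1314 regions called in 1 tagged library, in 10.3% of those in 2, 12.1% in 3, 14.0% in 4 and 15.9% in 5. Of the 136 regions called in all 6, it was enriched in 65, or 47.8%. The step came between 5 and 6 libraries, and the more widely shared a region was, the more often N2 called it. With the read shares of a tagged library, 57 to 64 of the 65 would have been called at the N2 totals. The part of read numbers and region width in this trend was not tested. A listed N2 peak of any strength lay in 19.8% of the regions called in 1 tagged library and in 69.1% of those called in all 6.

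The 71 regions called in all 6 tagged libraries and not in N2 were mostly sites with little or no N2 signal. N2 listed no peak in 42 of them, a log2 of at least 1 with too high a p in 14, a log2 between 0 and 1 in 12 and a log2 below 0 in 3. Chromosome X held 17 of the 136 regions, with 15 in the 71 and 2 in the 65 that N2 shared. This split rests on the N2 calls. Their low X share and low depth cannot be told apart for (+) and C130Y, as given above. With the read shares of the (+) libraries, 37 and 35 of the 71 would have been called at the N2 totals, with 29 and 30 for C130Y and 53 and 41 for ΔRRM. For many of the 71, N2 was thus too shallow for a call at the tagged read shares. Without (+) replicate 1, 108 regions were called in all remaining tagged libraries and not in N2, in place of 71. Leaving out a library loosens this rule, so the number can hardly fall. With tagged reads scaled to the N2 totals, 12 regions were called in all 6 and not in N2.

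The leading regions of the 71 were ranked by the lowest of their 6 tagged values, and N2 made no call in them. High tagged values beside a low or absent N2 value thus follow from the choice of regions. At chrIII:4035150-4035169 on the minus strand the tagged values were 5.31, 7.28, 5.42, 5.57, 5.32 and 5.51, and N2 had 3.16 on 4 CLIP reads and 1 input read. At chrI:9883721-9883762 on the plus strand they were 5.99, 4.39, 8.07, 5.10, 3.88 and 3.92, and N2 had 2.48 on 5 CLIP and 2 input reads. At chrI:9789243-9789346 on the plus strand they were 4.58, 4.79, 5.51, 5.36, 4.85 and 3.85, and N2 had 1.74 on 12 CLIP and 8 input reads. At these 3 sites N2 was above its input but below every tagged library.

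At the other 7 of the 10 regions N2 listed no peak. At chrI:15065226-15065260 on the plus strand, next to the general locus above, the tagged values were 5.87, 5.11, 5.18, 4.89, 5.79 and 5.25 on at least 213 CLIP reads in each library. The first of the 7 enriched N2 peaks of that locus began a short way downstream, at 15065283. At chrIV:2639801-2639859 on the minus strand the values were 5.42, 5.11, 4.32, 5.98, 4.51 and 4.41, and at chrX:4410664-4410703 on the plus strand 5.72, 3.96, 4.56, 3.78, 5.37 and 3.95. At chrIV:6705210-6705282 on the plus strand they were 3.81, 3.88, 6.07, 5.35, 5.51 and 4.46. The remaining 3 were chrII:6716197-6716243 and chrIII:10812070-10812130 on the minus strand and chrIV:4239785-4239827 on the plus strand, with lowest tagged values of 3.74, 3.66 and 3.71. ΔRRM was enriched at all 10, as the rule for the set requires.

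In the 65 regions that all 7 libraries called, N2 was below all 6 tagged values in 18 and above all 6 in 6. It lay among them in the others.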

How the data were processed

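The authors deposited 1 peak list for each of the 7 CLIP libraries, with replicates not pooled. Per deposited peak the authors give a log2 ratio of CLIP to matched input and a −log10 p-value, which is capped at 400 and is 0 where the log2 is below 0. Coordinates were in build ce10, and cutadapt 1.9.1, STAR 2.4.0i and SAMtools 1.4.1 had been used, per the submitters' processing notes. Which software called the peaks is not given in the sources used.

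The lists hold no read numbers. Read totals and reads per peak were recovered from the steps in the deposited log2 and −log10 p-values, taking p as Fisher's exact test where an observed or expected count was below 5 and as a chi-square test with Yates correction elsewhere. The recovered reads gave the deposited −log10 p within 0.001 or 1% for 100% of the N2 peaks below the cap and for at least 99.995% in each tagged library. The step was tested on simulated data. Reads at the cap are lower bounds, and at a log2 below 0 only the ratio is known. Reads in abutting pieces can be the same reads.

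Enriched peaks had a log2 of at least 1 and a −log10 p of at least 3. Loci joined enriched peaks of a strand within 5 kb. Tests were exact two-sided permutations over libraries, with 7 arrangements of 1 against 6 (smallest p 0.286) and 6 of 2 against 2 (smallest p 0.333). Peaks carry no test. Shares have Wilson 95% intervals.

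Named regions were the 10 with the highest N2 log2 in each of 3 sets, the 10 N2 peaks with the highest −log10 p (ties by log2), the 10 regions enriched in all 6 tagged libraries and not in N2 with the highest lowest tagged log2, and the 5 loci with the most N2 peaks. Members and rules were chosen with earlier results of these data known. Alternatives were other thresholds, joined pieces, other overlaps, scaled reads and leaving out each tagged library. Python 3.11.15, pandas 2.3.3, numpy 2.4.6 and scipy 1.17.1 were used. No gene names or sequences are given, since no ce10 reference was used here.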

Additional observations from a re-analysis of the deposited data

How the results depend on the processing

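Of 179 values of 15 results under other settings, 156 were counted as kept and 2 turned. Another 21 moved by more than the spread between libraries or by over 1.5 times as counts. The number of enriched peaks and the differences between forms were judged by direction alone, so their sizes could change. The difference between (+) and ΔRRM, for example, counted as kept at 14.2 points with a log2 of at least 3, against 25.0. With tagged reads scaled to the N2 totals, the log2 ratio of enriched peaks in N2 over the geometric mean of the tagged libraries turned from −0.69 to 0.74, and the share of tagged enriched peaks enriched in N2 turned from 4.82 points higher in (+) than in C130Y to −1.15. In that setting the mean share of tagged enriched peaks enriched in N2 rose from 27.0% to 51.2%, the regions in all 6 tagged libraries but not in N2 fell from 71 to 12, the X difference from the tagged mean went from −8.21 to −3.41 percentage points, that of III from 6.73 to 9.08, and that of median length from 14.9 to 24.5 nt. At a log2 of at least 3, the mean share of N2 enriched peaks enriched in a tagged library was 9.72% in place of 29.5%, that of tagged peaks in N2 11.8%, and the peaks in all 6 numbered 5 in place of 83, those with no tagged peak above 0 13, and the regions in all 6 but not in N2 20. At a −log10 p of at least 5 there were 137 peaks in no tagged library in place of 285, 8 with none above 0 and 47 regions in all 6 but not in N2. At 1.3 these were 1030, 355 and 146, the share of N2 peaks in tagged libraries was 17.7%, and the X and III differences were −4.93 and 2.83. The cause of these moves was not tested beyond the change in what is called. Joining pieces, a 50% overlap and matching on either strand moved none of these results.

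Each tagged library was also left out in turn, and counts in all or in none then referred to the libraries that remained. Such counts can hardly fall when a library is left out. There were 23 to 46 N2 peaks with none above 0 and 75 to 108 regions in all but not in N2. Both were highest without (+) replicate 1. Peaks in all numbered 83 to 106 and those in none 286 to 313. The ratio of numbers was −0.82 to −0.52, the shares were 26.7% to 31.9% and 24.2% to 30.1%, and matched listed peaks 37.3% to 43.3%. The differences were −8.59 to −7.96 and 6.37 to 6.96 points for X and III, 13.1 to 17.3 nt for length and 0.30 to 0.67 for the mean log2. Differences between forms were 1.25 to 8.39 for (+) against C130Y, 21.5 to 28.6 for (+) against ΔRRM and 19.8 to 20.6 for C130Y against ΔRRM. The comparisons by form and of log2 at matched peaks under other settings were added after seeing the data. No paired analysis was possible because N2 has 1 library and no replicate number. The limits are that N2 had the fewest reads, has no replicate and differs from all tagged strains in genetic background. Its labels also leave its antibody open.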
